A study of Rattus norvegicus with 3 samples.

Results

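Transcript levels in cells that overexpressed NIK(KA) were set against those in cells that overexpressed β-Gal. The comparison took in every gene model with an FPKM of 5 or more in either library, which gave 10719 of the 34340 gene models listed. FPKM is a read number divided by the length of the gene model and by the library total. Of the gene models compared, 9682 reached an FPKM of 5 in both libraries, 609 in NIK(KA) only and 428 in β-Gal only. The 2 gene models next to the limit show where it lay. The one just inside had an FPKM of 4.68 in NIK(KA) and 5.002 in β-Gal, and the one just outside 4.76 in NIK(KA) and 4.999 in β-Gal.

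All 3 libraries of the study came from INS-1 832/13, a clone of rat insulinoma cells that secretes insulin in response to glucose and stands in for the beta cell in culture. In the NIK(KA) library the cells overexpressed NIK(KA), a form that the labels do not describe and that published work uses for a kinase-dead NIK, in which a lysine of the kinase domain is replaced by alanine. In the NIK library they overexpressed NIK, and in the β-Gal library β-galactosidase, an enzyme often used as a control protein. Each group was 1 library of 1 cell clone, so no p-value or standard error is given and every difference is one between 2 libraries. Time after gene transfer, vector, promoter and level of the overexpressed proteins are not stated in these sources.

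NIK, the NF-κB-inducing kinase, is held at a low level in resting cells by continuous degradation. When it accumulates it phosphorylates the kinase IKKα, which sets off processing of the NF-κB precursor that partners with RelB, the non-canonical branch of NF-κB signalling. In beta cells this branch is studied for its part in impaired insulin secretion during metabolic and inflammatory stress. A form without kinase activity shares the protein body of NIK, including regions that bind other proteins, and is commonly used to separate effects of the enzyme from those of the protein.

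The files carry rat Ensembl gene IDs without symbols, and the reference table at hand pairs 0 of them with a gene name. Genes are therefore not named and no role is given to any of them. The labels could thus not be checked against the gene of NIK or against beta-cell markers. By ID, 2 gene models on the higher side and 2 on the lower side are given, and the others are described by rank, level, length and read number. Counted reads came to 14349721 for NIK(KA), 15095979 for NIK and 17457498 for β-Gal. Read numbers of single gene models were worked out from the FPKM steps and are lower limits, as are the lengths. For a gene model of 1000 bases, each read came to 0.0697 FPKM in NIK(KA) and 0.0573 FPKM in β-Gal.

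Most gene models were at a like level in the NIK(KA) and β-Gal libraries. The ratio was taken as log2((FPKM + 1) / (FPKM + 1)) of NIK(KA) to β-Gal, a scale that understates differences of low gene models. Its median over the 10719 gene models was 0.05, with quartiles of -0.23 and 0.34, and 8613 gene models (80.4%) were within 1.5-fold. At least 2-fold higher in NIK(KA) were 330 gene models, or 3.08%, and at least 2-fold lower were 204, or 1.9%. Together 534 gene models (4.98%) were past 2-fold, and 61.8% of these were higher in NIK(KA). Among the 9682 gene models with an FPKM of 5 or more in both libraries, 159 were higher and 102 lower. The others past 2-fold entered the comparison only through the library in which they were higher, so the filter shaped their number. In cultured cells measured in bulk, fewer expressing cells and less RNA per cell cannot be told apart.

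With the main settings, the excess on the higher side held up to 3-fold and turned round from 4-fold, where the counts were small. Past 2-fold, its size depended on the scaling of the libraries. The 330 higher and 204 lower became 292 and 243 with equal upper quartiles. They became 293 and 241 with the median log2 ratio of gene models at the minimum FPKM in both libraries set to 0. With equal FPKM sums they were 335 and 204. Counts past 3-fold and above were not repeated under other scalings, pseudocounts or read minimums, so the turn-round was not tested there. Past 3-fold there were 90 gene models higher and 70 lower in NIK(KA). Past 4-fold there were 44 higher and 51 lower, past 8-fold 10 higher and 20 lower, and past 16-fold 2 higher and 7 lower. The gene models next to the 2-fold limit had FPKM values of 16.2 in NIK(KA) and 7.57 in β-Gal just inside on the higher side, and 6.78 in NIK(KA) and 2.89 in β-Gal just outside. On the lower side they had 115 in NIK(KA) and 232 in β-Gal just inside, and 42.1 in NIK(KA) and 85.1 in β-Gal just outside.

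**Figure D1:**
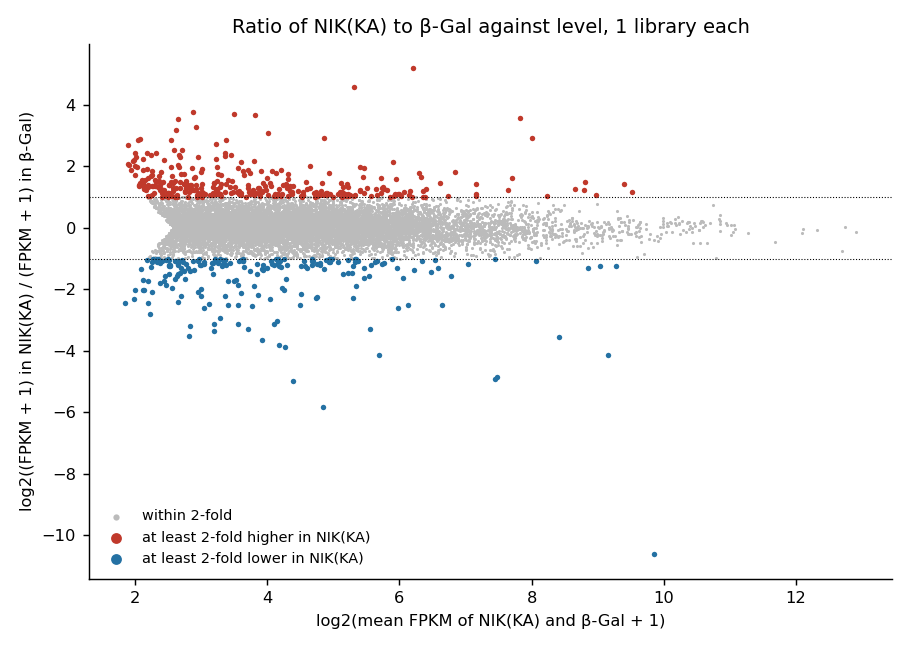
Each point is 1 of the 10719 gene models, with the log2 of its mean FPKM plus 1 on the x axis and the log2 ratio of NIK(KA) over β-Gal on the y axis; dotted lines mark 2-fold. Red points (330) lie above and blue points (204) below the lines, and a single blue point lies far below all others at a log2 ratio of -10.62.

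Counting error is small for most of these values. An exact 95% interval (Clopper-Pearson, from how reads divide between 2 libraries) left out a ratio of 1 for 317 of 330 gene models on the higher side and 195 of 204 on the lower. It also did so for 7418 of all 10719 gene models (69.2%), most of them within 2-fold. The 330 and the 204 were chosen by the ratio in these same reads. That their intervals leave out 1 was thus nearly fixed in advance and lends them no support. Such intervals cover the counting of reads; the spread between cultures has no replicate to measure it.

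ENSRNOG00000050647 had the highest ratio on the log2(FPKM + 1) scale, at 5.19. Its FPKM was 143 in NIK(KA) (2516 reads), 10.6 in NIK (196 reads) and 2.94 in β-Gal (63 reads). NIK(KA) stood far above both other libraries, with NIK nearer to β-Gal. The FPKM ratio of NIK(KA) over β-Gal was 48.6 (95% counting interval 37.8 to 63.4). Without the pseudocount the order differs: the gene model at rank 9 had an FPKM ratio of 49.9 (8.47 to 2018), which rests on 41 reads in NIK(KA) and 1 read in β-Gal, and 2 others were at 0 in β-Gal.

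ENSRNOG00000047225 came next, with an FPKM of 75.6 in NIK(KA) (573 reads), 32.2 in NIK (257 reads) and 2.17 in β-Gal (20 reads). Here both libraries with a NIK protein lay above β-Gal. The FPKM ratio of NIK(KA) over β-Gal was 34.9 (22.4 to 57.5), and the log2 ratio 4.60.

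The other gene models among the 12 with the highest ratios had log2 ratios down to 2.91. Of the 12, 4 were under 300 bases, 7 had fewer than 10 reads in β-Gal and 2 had 0 there. The gene model at rank 3 was read 13 times in NIK(KA) and 26 times in NIK over 71 bases and not in β-Gal. Set against the 3 reads that a count of 0 allows in β-Gal, it was at least 5.27-fold higher in NIK(KA), and the exact 95% interval, which also covers the counting error of the 13 reads, starts at 3.71-fold. That at rank 7 had 73 reads in NIK(KA) and 53 in NIK over 483 bases and 0 in β-Gal, and was at least 29.6-fold higher in NIK(KA) on the same floor, with an interval that starts at 23.5-fold. These 2 were present in both libraries with a NIK protein.

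Others were high in the NIK(KA) library alone. The gene model at rank 6, of 174 bases, had an FPKM of 415 in NIK(KA) (1037 reads), 28.6 in NIK (75 reads) and 33.9 in β-Gal (103 reads). Its FPKM ratio of NIK(KA) over β-Gal was 12.2 (9.995 to 15.1). The one at rank 5, of 390 bases, had 25.02 in NIK(KA) (140 reads), 1.36 in NIK (8 reads) and 1.03 in β-Gal (7 reads), and the one at rank 8, of 681 bases, 12.8 in NIK(KA) (125 reads), 0.292 in NIK (3 reads) and 0.421 in β-Gal (5 reads). In these 3 gene models the NIK and β-Gal values lay close together.

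The best-read gene model of the 12 was the last, of 3446 bases. Its FPKM was 452 in NIK(KA) (22329 reads), 147 in NIK (7653 reads) and 59.2 in β-Gal (3561 reads). The 3 libraries were thus well apart, with NIK between the other two. The FPKM ratio of NIK(KA) over β-Gal was 7.63 (7.36 to 7.91). Rank 11 was a gene model of 2095 bases with 50.1 in NIK(KA) (1505 reads), 30.1 in NIK (953 reads) and 5.66 in β-Gal (207 reads), a ratio of 8.85 (7.64 to 10.3) of NIK(KA) to β-Gal.

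On the lower side ENSRNOG00000014166 stood apart from all other gene models. Its FPKM was 0.175 in NIK(KA) (7 reads), 0.238 in NIK (10 reads) and 1850 in β-Gal (89799 reads, or 0.514% of the library total). It ranked 17895 in NIK(KA) and 19 in β-Gal among all gene models by FPKM. The FPKM in NIK(KA) was 10545-fold lower than that in β-Gal (95% counting interval 5118 to 26228), and the log2 ratio was -10.62. The NIK(KA) and NIK values were alike, so the β-Gal library alone was high.

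ENSRNOG00000046707, of 57 bases, was next. It had 0 reads in NIK(KA), an FPKM of 91.8 in NIK (79 reads) and 55.3 in β-Gal (55 reads). Against the 3 reads that a count of 0 allows in NIK(KA), it was at least 15.1-fold lower in NIK(KA) than with β-Gal, and the exact interval, which also covers the error of the 55 reads, starts at 11.8-fold. It was the only gene model compared with 0 reads in NIK(KA), whereas 5 had 0 in β-Gal, with 6 to 73 reads in NIK(KA). Of these 5, 4 were under 300 bases, and their median was 11 reads in NIK(KA). A gene model at 0 in 1 library was compared only because the other reached the limit. These counts are therefore not read as a difference between the libraries.

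Among the 12 gene models with the lowest ratios, several were low in the NIK(KA) library alone. The one at rank 4, of 958 bases, had an FPKM of 10.1 in NIK(KA) (139 reads), 376 in NIK (5432 reads) and 335 in β-Gal (5608 reads), and was 33.2-fold lower in NIK(KA) than with β-Gal (28.0 to 39.5). Rank 6 was a gene model of 49 bases with 59.7 in NIK(KA) (42 reads), 2048 in NIK (1515 reads) and 1077 in β-Gal (921 reads), which was 18.0-fold lower in NIK(KA) (13.2 to 25.2). Rank 11, of 116 bases, had 52.9 in NIK(KA) (88 reads), 614 in NIK (1075 reads) and 626 in β-Gal (1267 reads), and was 11.8-fold lower in NIK(KA) (9.53 to 14.9). In each of these the NIK value was within 2-fold of the β-Gal value.

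A few were low in both libraries with a NIK protein. The one at rank 5, of 120 bases, had an FPKM of 11.03 in NIK(KA) (19 reads), 10.5 in NIK (19 reads) and 342 in β-Gal (717 reads). Rank 3, a gene model without an Ensembl ID, had 0.273 in NIK(KA) (1 read), 1.04 in NIK (4 reads) and 39.5 in β-Gal (176 reads). For these the β-Gal library alone was high, so the difference cannot be told apart from a feature of that single library. This limit applies to ENSRNOG00000014166 as well. Likewise, gene models high or low in NIK(KA) alone cannot be told apart from a feature of the single NIK(KA) library. Of the 12, 7 were under 300 bases, 3 had no Ensembl ID and 7 had fewer than 10 reads in NIK(KA).

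**Figure D2:**
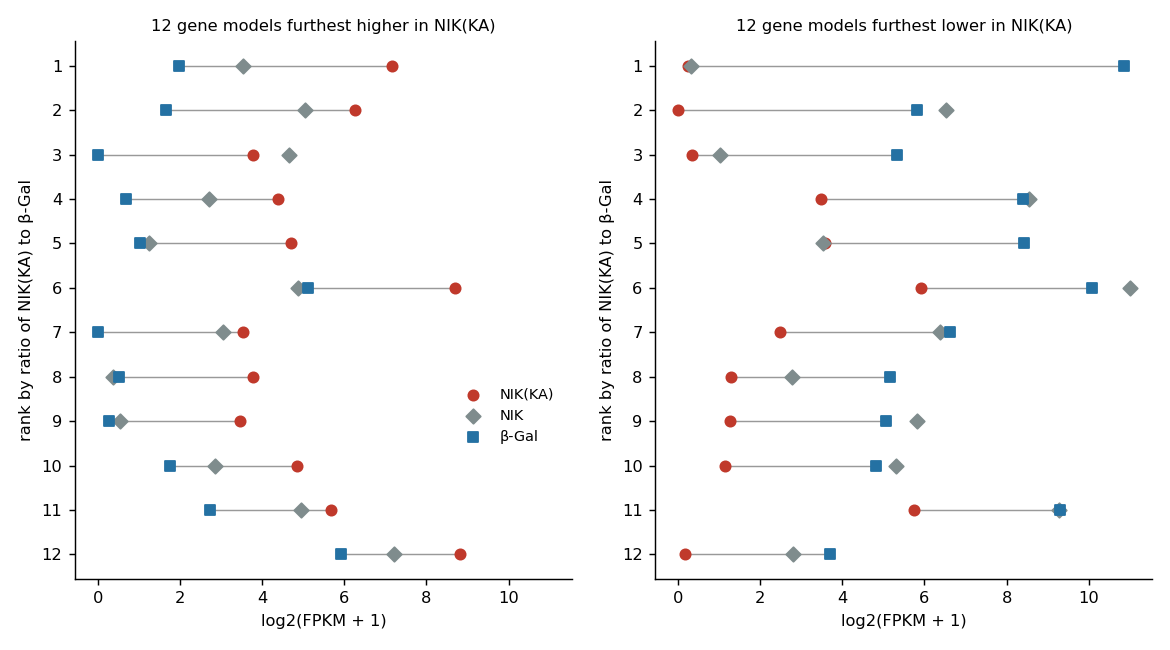
Log2(FPKM + 1) on the x axis in the NIK(KA) (circle), NIK (diamond) and β-Gal (square) libraries for the 12 gene models with the highest (left) and the 12 with the lowest (right) ratio of NIK(KA) to β-Gal, ranked from the top; grey lines join NIK(KA) and β-Gal. The NIK value lies near β-Gal for some ranks, such as ranks 4 and 11 on the right (FPKM 376 and 614 in NIK, against 335 and 626 in β-Gal), and near NIK(KA) for others, such as rank 5 on the right.

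Because short and thinly read gene models were common at both ends, the ranking was repeated over the 9798 gene models of at least 300 bases with at least 200 reads over both libraries. Of these, 222 (2.27%) were at least 2-fold higher in NIK(KA) and 146 (1.49%) at least 2-fold lower. Over all 10719 gene models compared the shares were 3.08% and 1.9%. On the higher side, after the gene models given above, came one of 3703 bases with an FPKM of 17.2 in NIK(KA) (912 reads), 2.43 in NIK (136 reads) and 1.501 in β-Gal (97 reads), an 11.4-fold difference of NIK(KA) to β-Gal (9.27 to 14.3). It was followed by one of 2253 bases with 9.28 in NIK(KA) (300 reads), 3.70 in NIK (126 reads) and 0.432 in β-Gal (17 reads), a 21.5-fold difference (13.2 to 37.3). The pseudocount places the second below the first although its FPKM ratio is larger.

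On the lower side of this better-read set, one of 2207 bases had an FPKM of 0.126 in NIK(KA) (4 reads), 6.003 in NIK (200 reads) and 11.99 in β-Gal (462 reads), and was 94.9-fold lower in NIK(KA) than with β-Gal (36.8 to 350). One of 1449 bases had 1.44 in NIK(KA) (30 reads), 11.9 in NIK (260 reads) and 22.8 in β-Gal (576 reads), and was 15.8-fold lower (10.9 to 23.6). In both, the NIK value lay between the other libraries and, as a ratio, nearer to β-Gal. Others of the same set were low in both libraries with a NIK protein. One of 790 bases had 1.41 in NIK(KA) (16 reads), 0.503 in NIK (6 reads) and 20.2 in β-Gal (279 reads), and one of 958 bases had 1.31 in NIK(KA) (18 reads), 1.04 in NIK (15 reads) and 13.1 in β-Gal (219 reads). A gene model of 4403 bases was instead low in NIK(KA) alone. It had 2.96 in NIK(KA) (187 reads), 18.8 in NIK (1247 reads) and 22.2 in β-Gal (1709 reads). Its FPKM was 7.51-fold lower in NIK(KA) than with β-Gal (6.46 to 8.78).

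The share of gene models past 2-fold differed between classes of level. The lowest class was shaped by the filter, so its shares are no result about level. Among the 446 gene models with a mean FPKM under 5, which entered because 1 library alone reached the limit, 17.3% were higher and 8.07% lower in NIK(KA). Between a mean FPKM of 5 and 10 the shares were 3.86% higher and 2.34% lower, and between 20 and 50 they were 1.93% and 1.38%. Among the 159 gene models with a mean FPKM of 500 or more, 2 were higher (1.26%) and 4 lower (2.52%). The median log2 ratio was 0.08 between 5 and 10, 0.03 between 50 and 100, and -0.02 both between 100 and 500 and at 500 or more.

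Length entered as well. Gene models under 300 bases made up 54 of the 330 higher ones (16.4%) and 35 of the 204 lower ones (17.2%), against 442 of all 10719 (4.12%). Of these 442, 12.2% were higher and 7.92% lower in NIK(KA), with a median of 60 reads over both libraries. Restricted to at least 200 reads, 4 of 107 (3.74%) were higher and 7 of 107 (6.54%) lower, against 2.28% and 1.54% of all 9905 gene models with that many reads. The short lengths are lower limits, so some of these gene models may be longer.

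Of gene models between 2000 and 4000 bases, 91 of 3645 were higher (2.50%) and 37 lower (1.02%), and of those of 4000 bases or more 23 of 1413 were higher (1.63%) and 14 lower (0.991%). Gene models without an Ensembl ID numbered 328 among those compared, of which 27 were higher (8.23%) and 20 lower (6.10%) in NIK(KA). Among the 242 of them with at least 200 reads, 18 were higher (7.44%) and 17 lower (7.02%). Both shares lay above those of the 9663 Ensembl gene models with that many reads, at 2.15% higher and 1.41% lower.

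**Figure D3:**
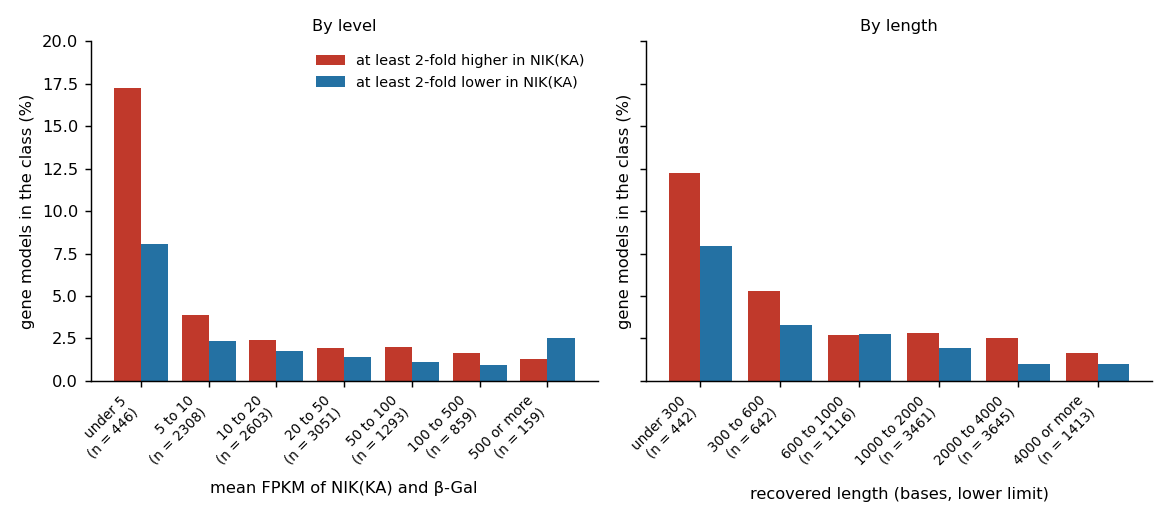
Percentage of gene models at least 2-fold higher (red) and at least 2-fold lower (blue) in NIK(KA) than in β-Gal, by mean FPKM of the 2 libraries (left) and by recovered length in bases (right), with the number of gene models in each class under the bars. Shares are highest in the lowest class of level (17.3% and 8.07%) and of length (12.2% and 7.92%). The filter shaped the lowest class of level, so its shares are no result about level. Among gene models under 300 bases with at least 200 reads, 3.74% were higher and 6.54% lower.

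The most abundant transcripts were mostly alike. The 20 gene models with the highest FPKM in β-Gal held 9.67% of the FPKM sum in NIK(KA), 8.60% in NIK and 11.2% in β-Gal. Choosing them by the β-Gal level favours gene models that are high in that library. The larger share in β-Gal, and the direction of the differences below, are therefore no separate result. Of these, 17 were within 1.5-fold between NIK(KA) and β-Gal, and 16 were also among the 20 highest in NIK(KA). The 1 past 2-fold was ENSRNOG00000014166. The remaining 2 were both lower in NIK(KA). The highest of all in β-Gal had a log2 ratio of -0.75. That at rank 9, of 466 bases, had an FPKM of 1186 in NIK(KA) (7932 reads), 913 in NIK (6426 reads) and 2339 in β-Gal (19025 reads). It was 1.97-fold lower in NIK(KA) than with β-Gal (1.92 to 2.02) and ranked 52 there.

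In terms of FPKM moved, 5888 gene models were higher in NIK(KA) by any amount and 4831 lower. The 10 largest gains made up 7.68% of the FPKM gained, and the 10 largest losses 17.2% of the FPKM lost. The gene models past 2-fold accounted for 15.2% of the gains and 14.4% of the losses, so that most of the FPKM moved lay in smaller differences. The largest gain was in a gene model of 2500 bases, with an FPKM of 2148 in NIK(KA) (77075 reads), 1575 in NIK (59436 reads) and 1285 in β-Gal (56103 reads), a ratio of 1.67 of NIK(KA) to β-Gal (1.65 to 1.69). The next, of 1938 bases, had 980 in NIK(KA) (27245 reads), 543 in NIK (15884 reads) and 367 in β-Gal (12427 reads), a ratio of 2.67 (2.61 to 2.72). In both, NIK lay between the other libraries.

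The largest losses were larger than the largest gains. The gene model with the highest FPKM in β-Gal, of 445 bases, had an FPKM of 4931 in NIK(KA) (31485 reads), 2860 in NIK (19210 reads) and 8321 in β-Gal (64646 reads), and its FPKM in NIK(KA) dropped by 3391 against β-Gal, compared with the largest gain of 863. Next came ENSRNOG00000014166 and the gene model of 466 bases described above. The loss after these was in a gene model of 1882 bases with an FPKM of 2767 in NIK(KA) (74737 reads), 1930 in NIK (54819 reads) and 3802 in β-Gal (124902 reads), which was 1.37-fold lower in NIK(KA) (1.36 to 1.39). The fifth was the gene model of 49 bases at rank 6 among the lowest ratios.

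A further large gain was in a gene model of 1378 bases, whose FPKM was 658 in NIK(KA) (13007 reads), 239 in NIK (4962 reads) and 235 in β-Gal (5661 reads). NIK and β-Gal were alike for this gene model, and the ratio of NIK(KA) over β-Gal was 2.80 (2.71 to 2.88). A gene model of 1610 bases had 622 in NIK(KA) (14375 reads), 379 in NIK (9208 reads) and 265 in β-Gal (7462 reads), a ratio of 2.34 (2.28 to 2.41).

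The levels of the higher and lower gene models in the NIK library were set beside those in the other libraries. The median FPKM of the 330 higher gene models was 15.2 in NIK(KA), 9.46 in NIK and 4.71 in β-Gal. Below an FPKM of 1 in β-Gal were 28 of them (8.48%), against 28 of all 10719 gene models compared (0.261%). The median FPKM of the 204 lower gene models was 5.002 in NIK(KA), 10.3 in NIK and 18.9 in β-Gal. Of these 204, 16 (7.84%) were below 1 in NIK(KA), against 16 of all 10719 (0.149%). A gene model below 1 in 1 library was compared only if it reached 5 in the other. It is then past 2-fold by the rule, so these shares are no separate result.

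For the higher gene models, the log2 ratio to β-Gal had a median of 1.29 in NIK(KA) (quartiles 1.11 and 1.64) and of 0.73 in NIK (0.41 and 1.07). For the lower ones it was -1.27 in NIK(KA) (-2.0 and -1.09) and -1.04 in NIK (-1.79 and 0.04). Over all 10719 gene models the median was 0.05 in NIK(KA) and -0.01 in NIK. Both ratios use the same single β-Gal library, and the groups were chosen by the first of them, so their likeness is no separate result. For the same reason, NIK medians between those of the other libraries are no separate result.

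**Figure D4:**
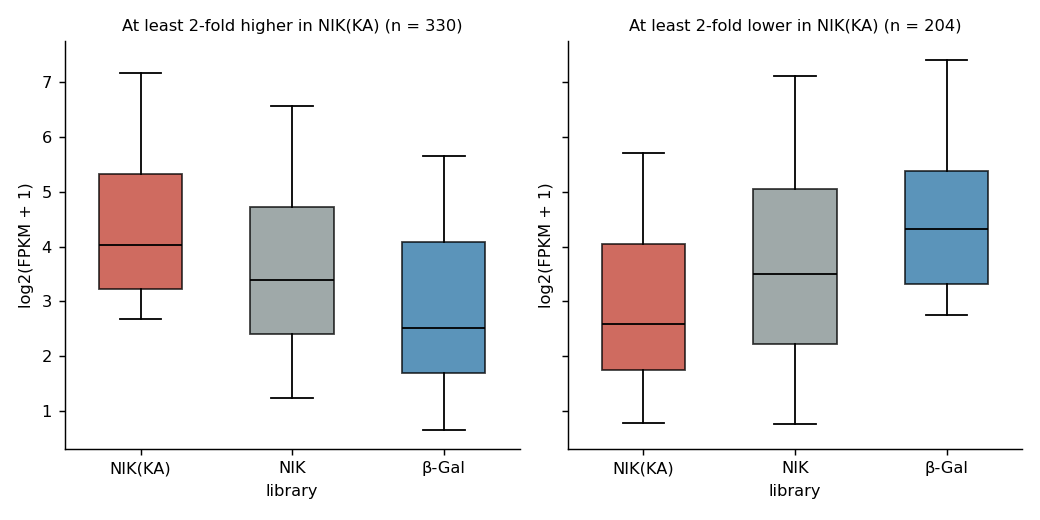
Log2(FPKM + 1) on the y axis in the NIK(KA), NIK and β-Gal libraries for the 330 gene models at least 2-fold higher (left) and the 204 at least 2-fold lower (right) in NIK(KA) than in β-Gal; boxes show the median and quartiles over gene models and whiskers the 5th and 95th percentiles. The NIK boxes lie between the others, with median FPKM values of 9.46 (left) and 10.3 (right). Choosing the groups by the ratio of NIK(KA) to β-Gal favours such a place for NIK, so it is no separate result.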

How the data were processed

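The deposited files give 1 FPKM value for each gene model and library, computed by the authors, and 3 such files were used. Per the submitters' processing notes the tools were TopHat2 and HTSeq 0.6.1 and a build was GRCm38, a mouse build, although the rows are rat Ensembl IDs. Strandedness, filters and annotation are not stated there. Reads from overlapping, antisense or near-identical genes cannot be separated.

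Library totals followed from gene models with equal low read numbers (650 for NIK(KA) and β-Gal). Lengths and reads were the lowest whole numbers giving the deposited FPKM values, within 1e-06 reads and 100000 bases. All 22026 gene models above 0 came out whole (100.0%), holding 95.9% of the NIK(KA) and 96.1% of the β-Gal total. The steps were run on simulated data made with the same FPKM formula, which checks the arithmetic and not the formula. Python 3.11.15, numpy 2.4.6, pandas 2.3.3 and scipy 1.17.1 were used.

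No test across libraries was possible. Of the reference's 47357 genes (GRCr8), 0 carry an Ensembl ID, so the 19 gene lists and the promoter and miRNA sequences were not used. Gene models given by ID are the 2 Ensembl IDs with the highest and the 2 with the lowest log2(FPKM + 1) ratio; the other single gene models described were picked after their values were seen. Members and lists were chosen with earlier results of these data known.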

Additional observations from a re-analysis of the deposited data

How the results depend on the processing

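No paired analysis was possible because each group is 1 library. The gene list alternative was not run, for want of symbols. Of 32 alternative counts of gene models, 18 were within 1.5 times the reported 330 higher and 204 lower in NIK(KA). The others were 129 higher and 93 lower with a pseudocount of 5, 800 and 372 both with a minimum FPKM of 1 and with none, 135 and 100 with a minimum of 20, 159 and 102 with an FPKM of 5 in both libraries, 1265 and 841 past 1.5-fold, and 90 and 70 past 3-fold. Under these 16 alternatives, with fold thresholds of 1.5 to 3, the higher side made up 54.6% to 68.3% of the gene models past the threshold. The lowest share came with equal upper quartiles and the highest with a minimum FPKM of 1 or none. Gene models under an FPKM of 1 in both libraries cannot reach 2-fold with a pseudocount of 1. A minimum of 1 and no minimum thus had to give the same counts. Past 4-fold, counted with the main settings only, the higher side was the smaller, at 44 against 51 lower.

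The median log2 ratio of 0.05 became 0.0035 with equal upper quartiles, 0.0058 with the median of gene models at an FPKM of 5 in both libraries set to 0, 0 with no minimum FPKM, 0.0722 with a minimum of 1 and 0.0385 with a minimum of 20. With other pseudocounts and scalings, the log2 ratios of the gene models given by ID ran between 4.22 and 5.56 and between 3.49 and 5.06 for the 2 higher ones, and between -12.71 and -8.49 and between -9.11 and -3.59 for the 2 lower ones. Taking the reads of ENSRNOG00000014166 out of the library totals and rescaling every FPKM, an alternative chosen after seeing the data, gave 325 higher and 211 lower. A minimum of 200 reads, also chosen then, gave 226 and 153.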
